A study of Mus musculus with 24 samples.

Results

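Structural and nuclear noncoding RNAs are among the most abundant transcripts of a cell, and 10 of their genes were followed here: Malat1, Neat1, Rn7sk, Rn7s1, Rn7s2, Rmrp, Rpph1, Gm42418, AY036118 and CT010467.1. They were chosen by gene name from the 35200 gene names listed over the 24 libraries. The value of a gene in a library is the sum of TPM over the transcripts that carry its name. TPM is the abundance of a transcript per unit of its length as a share of its library, so levels of different genes can be set side by side, and a class of RNA that takes a large share lowers the values of the rest.

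The libraries were made from C3H 10T1/2, mouse embryo fibroblasts that become muscle when given the muscle transcription factor MyoD. The groups came from LncMyoD-KO clone 1, LncMyoD-KO clone 2 and the wild type (WT) line, where LncMyoD is a long noncoding RNA encoded near Myod1 and each KO line is a single clone. Within each line the cells were given MyoD adenovirus together with LncMyoD plasmid, MyoD adenovirus, LncMyoD plasmid, or nothing, with 2 libraries per group and 8 per line. No group received an empty virus or an empty plasmid, and the labels do not say that the 2 libraries of a group came from separate cultures, so the spread behind each p-value is that of these libraries alone and may be technical. The labels name polyadenylated RNA as the molecule, while their protocols describe total RNA and a low-input full-length cDNA kit, of a kind that primes from poly(A) and does not mark strand.

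The labels of the treatments were checked first. Myod1 was at 930 to 3735 TPM in the 12 libraries given MyoD adenovirus and at 0 to 3.76 TPM in the 12 others. An unnamed spliced transcript on the minus strand near Myod1 (chromosome 7, 46345772 to 46351188, mm10) appeared in all 12 libraries with plasmid, while in the 12 others a spliced minus-strand transcript within 60 kb of Myod1 appeared in 1, at other coordinates and 0.692 TPM. Since WT libraries without plasmid lacked it too, this checks the plasmid labels and not the knockouts. All 10 fibroblast markers were listed in each line, with summed TPM of 196 to 245 in KO clone 1, 2873 to 14965 in KO clone 2 and 372 to 537 in WT, and 0 of 4 epithelial markers were listed in any line. Skeletal muscle markers summed to 0 to 5.56 TPM in KO clone 1, to 2.64 to 645 TPM in KO clone 2 and to 0 to 25.3 TPM in WT, with Myh3 at 0 in every library and Ckm at 0 in KO clone 1 and WT.

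Malat1 and Neat1 are long RNAs made by RNA polymerase II that stay in the nucleus. Malat1 gathers in nuclear speckles, bodies rich in splicing factors, and the long form of Neat1 is the scaffold of paraspeckles, while its short form ends in an ordinary poly(A) tail. RNase P cuts Malat1 just behind a stretch of A bases encoded in the gene, and a small tRNA-like RNA (mascRNA) is released from the downstream piece. Rn7sk encodes 7SK RNA, which holds the elongation factor P-TEFb in an inactive particle, and Rn7s1 and Rn7s2 encode 7SL RNA, the core of the signal recognition particle that carries nascent secreted proteins to the endoplasmic reticulum. Rpph1 and Rmrp are the RNA subunits of RNase P, which trims tRNA precursors, and RNase MRP, which acts on the precursor of ribosomal RNA. The RNAs 7SK, 7SL, Rmrp and Rpph1 are made by RNA polymerase III and carry no poly(A) tail. Gm42418, AY036118 and CT010467.1 lie on a copy of the ribosomal RNA repeat and read ribosomal RNA.

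Kits of this kind are known to prime from A bases, and the stretches below show the longest A run or the 3′ end of the members on which the results turn; where priming took place was not tested. They were read from the GRCm38 (mm10) genome with GENCODE vM21 transcripts, 5′ to 3′ on the RNA strand, and capitals mark the A run or the terminal A bases. Each entry gives the gene's own strand. Malat1 is annotated as a lincRNA on chromosome 19 from 5795690 to 5802672 and Neat1 as a lincRNA from 5824708 to 5845478. The Malat1 stretch lies in the last part of the full-length transcript, at chr19:5795913-5796089 on the minus strand and runs through the A run into mascRNA. The Neat1 stretch is the 3′ end of the long form at chr19:5824708-5824807 on the minus strand.
Malat1: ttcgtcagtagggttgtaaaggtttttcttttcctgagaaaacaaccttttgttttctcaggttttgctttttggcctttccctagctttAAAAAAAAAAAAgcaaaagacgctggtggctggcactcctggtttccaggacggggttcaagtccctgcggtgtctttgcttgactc
Neat1 long form: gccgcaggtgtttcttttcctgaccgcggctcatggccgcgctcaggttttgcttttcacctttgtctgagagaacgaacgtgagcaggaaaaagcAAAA
Rn7s1 (chromosome 12, 69159295 to 69159594, plus strand) and Rn7s2 (chromosome 12, 69361182 to 69361481, minus strand) have the same 300 bases. Of Rn7sk (chromosome 9, 78175303 to 78175633) the first 300 of 331 bases are shown, at chr9:78175334-78175633 on the minus strand.
Rn7sk: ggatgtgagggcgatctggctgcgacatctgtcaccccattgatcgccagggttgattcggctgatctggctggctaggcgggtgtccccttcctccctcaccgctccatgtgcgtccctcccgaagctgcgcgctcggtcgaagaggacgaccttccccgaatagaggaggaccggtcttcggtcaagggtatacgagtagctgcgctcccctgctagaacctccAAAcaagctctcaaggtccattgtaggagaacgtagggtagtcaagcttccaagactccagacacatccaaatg
The longest A run was 12 bases in Malat1, at bases 5795988 to 5795999 of chromosome 19, and 7 bases in Neat1. It was 4 bases in Rn7s1 and Rn7s2, 3 in Rn7sk and Rmrp, and 2 in Rpph1. Of 1782 annotated transcripts within 10% of the length of Malat1, 18.7% held an A run at least as long as its own. The shares for transcripts as long as the others were 85.7% of 21 for Neat1, 70.5% of 3141 for Rn7s1 and Rn7s2, and 96.2% of 5185 for Rn7sk. Among Malat1, Neat1, Rn7s1, Rn7s2 and Rn7sk, the run of Malat1 alone was longer than that of most transcripts of its length. Gm42418 held a run of 6 bases, and 48.65% of 8195 transcripts of its length held 1 at least as long. In their A-richest window of 20 bases, Malat1 and Neat1 both held 17 A bases. Since Rn7s1 and Rn7s2 are identical, reads of 7SL RNA cannot be given to either gene, and their values below are a single measurement split over both.

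The ribosomal members share their bases as well, which the next sequences show at the end of the 18S gene. The 20 capital bases at the start of CT010467.1 (chr17:39848142-39848201, minus strand) are the reverse complement of the 20 capital bases of Gm42418 in the same stretch on the plus strand. Those bases of Gm42418 read as the conserved 3′ end of 18S ribosomal RNA.
CT010467.1: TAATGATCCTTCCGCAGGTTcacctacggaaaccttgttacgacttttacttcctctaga
Gm42418: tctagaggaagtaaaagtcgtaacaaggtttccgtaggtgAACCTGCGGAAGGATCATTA
AY036118, with 923 nt, lies wholly inside both other genes. The 1849 nt transcript of CT010467.1 shares 1244 nt with Gm42418 on the opposite strand, or 67.3% and 67.9% of their lengths. A second annotated transcript of CT010467.1, from 39848103 to 39848827, spans the other 587 nt of Gm42418. In libraries that do not mark strand, reads of this stretch (chromosome 17, 39846353 to 39848827) cannot be told apart between the 3 genes, so their sum is the quantity to read.

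The share of ribosomal RNA set KO clone 2 apart from both other lines. The 3 ribosomal genes took 23.1% to 48.2% of TPM in KO clone 1 (median 36.1%) and 2.45% to 7.76% in KO clone 2 (median 4.90%), against 15.2% to 64.7% in WT (median 34.5%). No KO clone 2 library reached the lowest value of another line, while the ranges of KO clone 1 and WT overlapped. Transcripts without a gene name lay over the same stretch and held up to 42.5% of TPM in KO clone 1 and up to 45.6% in WT, but 0 in all 8 KO clone 2 libraries. With them, the share was 36.6% to 68.9% in KO clone 1 and stayed at 2.45% to 7.76% in KO clone 2, against 53.9% to 68.3% in WT. The mean shares were then 60.3% ± 10.0, 4.92% ± 1.70 and 61.1% ± 4.38 (SD, n = 8 each). These shares are descriptions with no test.

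**Figure D1:**
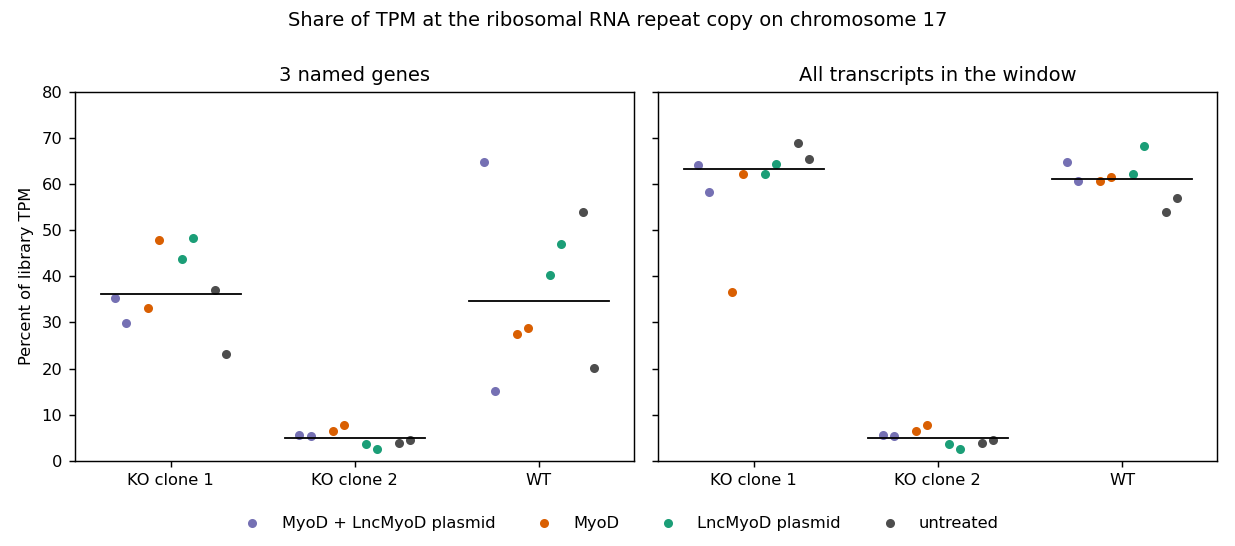
Percent of a library's TPM at the ribosomal RNA copy on chromosome 17, for the 3 named genes (left) and for all transcripts there (right). Points are libraries coloured by treatment, bars are medians of 8 libraries per line. The 8 KO clone 2 libraries lie at 2.45% to 7.76% in both panels, below every library of KO clone 1 and WT.

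Other library properties moved with this share. Mitochondrial transcripts held 1.32% to 2.20% of TPM in KO clone 1 and 7.91% to 14.0% in KO clone 2, against 2.06% to 3.84% in WT. Genes with at least 1 TPM numbered 4274 to 5758 in KO clone 1 and 10412 to 13245 in KO clone 2, against 5446 to 6964 in WT. Transcripts with a gene name, the only ones in named TPM, held 30.9% to 55.8% of TPM in KO clone 1. They held 72.6% to 82.5% in KO clone 2, against 27.4% to 78.2% in WT, where the last 2 ranges overlapped. The depth derived from the files was 2.43 to 5.93 gigabases of aligned sequence per library, and ranges of the lines overlapped. In a bulk sample fewer cells and less RNA per cell cannot be told apart, and with a single clone per KO line, clone, genotype and any shared handling of a line's libraries cannot be told apart. The part of the ribosomal share in the results below was not tested beyond the values given.

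Between the ribosomal genes the named TPM moved from library to library. Gm42418 was at 48324, 143644 and 238402 TPM (lowest, median and highest) in KO clone 1 and at 12471, 27268 and 39697 TPM in KO clone 2, against 37732, 78394 and 196960 TPM in WT. AY036118 was at 2.05, 131080 and 299968 TPM in KO clone 1 and at 3488, 6950 and 26426 TPM in KO clone 2, against 50525, 168637 and 284188 TPM in WT. CT010467.1 was at 6322, 19206 and 61974 TPM in KO clone 1 and at 5479, 11408 and 14834 TPM in KO clone 2, against 2336, 35336 and 108638 TPM in WT. Only AY036118 had KO clone 2 values all below WT on named TPM. Coverage over each gene's span, summed over all assembled transcripts on either strand whether named or not, was lower in every KO clone 2 library than in every WT and KO clone 1 library for all 3 genes. Its medians were 10.9-fold (Gm42418), 13.7-fold (AY036118) and 11.3-fold (CT010467.1) lower in KO clone 2 than in WT.

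The next comparison asked how the 10 RNAs differed between lines over all treatments. In KO clone 2 against WT, 2 members were higher (Malat1 and Neat1) and 5 were lower (Rn7sk, Rn7s1, Rn7s2, Gm42418 and CT010467.1) by limma with Benjamini-Hochberg adjustment. Genes were called at an adjusted p below 0.05 where their log2 change, on the log2(TPM + 1) scale, was 1 or more in size, over the 16680 genes that passed a filter of 1 TPM in 2 libraries; all 10 members passed it. Over all these genes, 57.1% were called higher and 2.88% lower, with a median log2 change of 1.36. Against that background a higher value was usual, and a lower value was not. Rn7s1 and Rn7s2 are a single measurement, and Gm42418 and CT010467.1 share bases, so the 5 lower calls are not separate results. The background itself hung on the scaling, with 9521 genes higher and 481 lower on TPM. After the ribosomal stretch and mitochondrial genes were removed and TPM rescaled over the remaining named genes, 5481 were higher and 2422 lower. That total also leaves out all transcripts without a gene name, here and wherever these RNAs are said to be removed. Where unnamed transcripts were assigned to genes, it leaves out those that stayed unassigned. With median-of-ratios scaling 3778 were higher and 2190 lower.

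7SL RNA had the largest fall among the members called lower. Rn7s1 was at 26.9, 39.7 and 52.6 TPM in KO clone 1 and at 1.18, 4.36 and 10.4 TPM in KO clone 2, against 64.5, 87.3 and 142 TPM in WT (lowest, median and highest of 8 libraries). The ranges of the 3 lines did not overlap, with KO clone 2 lowest, KO clone 1 between and WT highest. The log2 change of KO clone 2 was -4.04 ± 0.22 (SE), with an adjusted p of 5.84e-11. Rn7s2, the identical copy, changed by -3.97 ± 0.22 (adjusted p = 6.19e-11). On coverage per aligned gigabase the median of Rn7s1 was 27.7-fold lower in KO clone 2 than in WT.

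7SK RNA was lower in KO clone 2 as well. Rn7sk was at 20.8, 25.5 and 32.0 TPM in KO clone 1 and at 4.93, 8.48 and 16.2 TPM in KO clone 2, against 30.5, 45.7 and 60.5 TPM in WT. Every KO clone 2 library lay below every library of both other lines, and KO clone 1 and WT overlapped. The log2 change in KO clone 2 was -2.19 ± 0.10 (adjusted p = 9.77e-12), a smaller fall than that of 7SL. Together 7SK and 7SL took 0.00931% to 0.0165% of TPM in KO clone 1 and 0.00133% to 0.00290% in KO clone 2, against 0.0194% to 0.0359% in WT. The ratio of 7SL to 7SK coverage had medians of 3.17 in KO clone 1 and 1.12 in KO clone 2, against 4.09 in WT. In KO clone 2 this ratio ran between 0.231 and 3.29 over its 8 libraries and lay below the WT median in all of them.

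Both falls kept their sign and their call on every scale tried, and they grew on the rescaled totals. Those totals leave out the ribosomal stretch, mitochondrial genes and transcripts with no named or assigned gene. The part of each omission was not tested. With unnamed transcripts assigned by overlap and the total rescaled, Rn7sk changed by -4.66 ± 0.11 (adjusted p = 5.94e-15) and Rn7s1 by -6.57 ± 0.24 (adjusted p = 7.89e-13). On that scale 11.1% of 29121 genes were called lower and the median of all genes was -0.0040. Leaving out any single library moved Rn7sk only between -2.23 and -2.14 and Rn7s1 between -4.19 and -3.90. The ribosomal share was also lowest in the 8 KO clone 2 libraries. Rmrp and Rpph1, which carry no poly(A) tail either, were near the floor and not called. Any part of the missing tail in these falls was not tested.

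**Figure D2:**
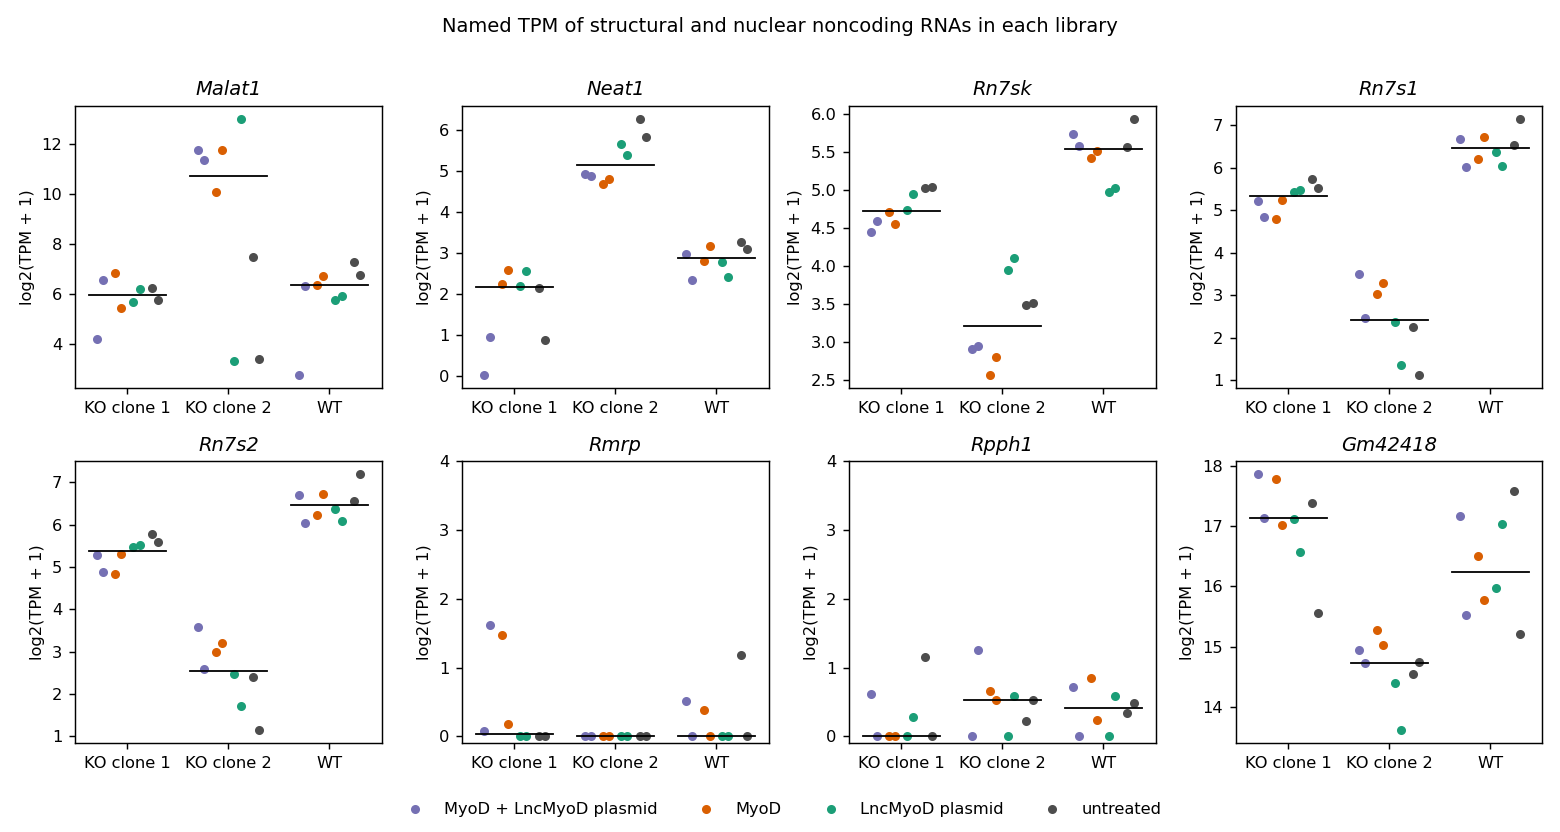
log2(TPM + 1) of 8 members in each library by line, with points coloured by treatment and bars at the median of 8 libraries. Rn7sk, Rn7s1 and Rn7s2 lie lowest in KO clone 2, Neat1 lies highest there, and Malat1 spreads from 8.92 to 8310 TPM among the KO clone 2 libraries. Rmrp and Rpph1 stay near 0 in all lines.

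Malat1 depended on which transcripts carried its name. Its named TPM was 17.4, 63.0 and 115 in KO clone 1 and 8.92, 1872 and 8310 in KO clone 2, against 5.77, 80.6 and 154 in WT. Within KO clone 2 the libraries held 3527 and 2641 TPM with MyoD and plasmid, 1104 and 3486 TPM with MyoD, 8.92 and 8310 TPM with plasmid, and 179 and 9.69 TPM untreated. Thus 2 KO clone 2 libraries lay below the WT median and 6 above every WT library. The log2 change against WT was 3.05 ± 1.06 (adjusted p = 0.0165). In the 2 untreated libraries of each line alone it was -1.56 ± 2.11 (adjusted p = 0.557), so its sign there was not settled. The untreated KO clone 2 libraries, at 179 and 9.69 TPM, lay on both sides of the untreated WT libraries, at 154 and 107 TPM.

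Unnamed transcripts filled the gap in the low libraries. In KO clone 2, unnamed minus-strand transcripts over Malat1 were at 2367 and 1141 TPM in the untreated libraries and at 2320 TPM in the first plasmid library, the 3 libraries with the lowest named values. Their downstream ends on chromosome 19 differed, at base 5796004 for the transcript with 2367 TPM, at 5795690 for that with 1141 TPM and at 5795689 for that with 2320 TPM. With unnamed transcripts assigned to the gene that held at least 50% of their exonic length on the same strand, Malat1 was at 53.4, 72.2 and 115 TPM in KO clone 1 and at 1104, 2593 and 8310 TPM in KO clone 2, against 58.96, 80.6 and 154 TPM in WT. The KO clone 2 values then lay wholly above both other lines, with a log2 change of 4.88 ± 0.28 (adjusted p = 3.88e-11), where 55.6% of genes were called higher. Coverage over the gene on either strand agreed in direction: it was 33.6, 49.8 and 66.7 per gigabase in KO clone 1 and 868, 1151 and 2659 in KO clone 2, against 42.3, 53.3 and 96.3 in WT.

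Assigned Malat1 took 0.00643% to 0.0159% of TPM in KO clone 1 and 0.115% to 0.848% in KO clone 2, against 0.00702% to 0.0189% in WT. Its exon coverage changed by 4.04 ± 0.24 in KO clone 2 (adjusted p = 4.10e-11), where 56.7% of 15170 genes were called higher. Actb, which encodes a cytoskeletal actin, had exon coverage of 33.0 to 65.1 in KO clone 1 and 1378 to 2457 in KO clone 2, against 61.0 to 115 in WT. Gapdh, a glycolytic enzyme, had a median exon coverage of 1.02 in KO clone 1 and 6.02 in KO clone 2, against 1.27 in WT, a smaller gap. With ribosomal and mitochondrial RNA removed, assigned Malat1 was still higher in KO clone 2, by 2.44 ± 0.28 (adjusted p = 2.24e-06), where 19.6% of genes were called higher. Without the assignment, on the same rescaled TPM, the change was 0.31 (adjusted p = 0.898).

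**Figure D3:**
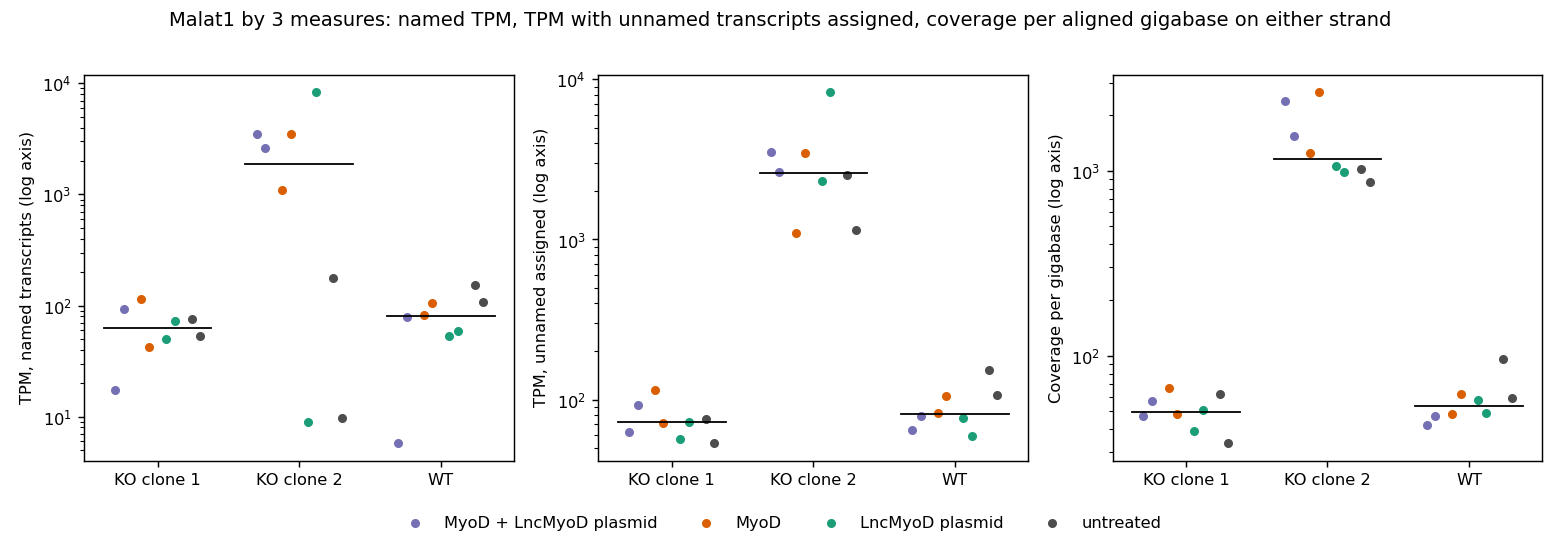
Malat1 in each library by named TPM (left), TPM with unnamed transcripts assigned (middle) and coverage per aligned gigabase on either strand (right), on log axes, with bars at the median of 8 libraries. Named TPM overlaps between lines, while the middle and right panels place all KO clone 2 libraries (1104 to 8310 TPM, 868 to 2659 per gigabase) above the other lines.

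The named Malat1 transcripts showed a further difference in form. The full-length transcript of 6983 nt was listed in all 24 libraries. A named transcript of 756 nt was listed in 0 of 8 KO clone 1 and 5 of 8 KO clone 2 libraries, against 1 of 8 WT libraries, where it was at 0.108 TPM. It held 7849 of the 8310 TPM in the second KO clone 2 plasmid library, so the highest Malat1 value rested on a short transcript.

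Neat1 was higher in KO clone 2 on TPM, and less clearly so on the rescaled totals. It was at 0.0229, 3.52 and 5.07 TPM in KO clone 1 and at 24.9, 35.2 and 76.3 TPM in KO clone 2, against 4.10, 6.43 and 8.65 TPM in WT. All KO clone 2 libraries lay above all others. The log2 change in KO clone 2 was 2.44 ± 0.20 (adjusted p = 1.07e-08), and on exon coverage it was 1.98 ± 0.12 (adjusted p = 2.84e-11). On the rescaled totals, which leave out ribosomal, mitochondrial and remaining unnamed RNA, it was 0.41 ± 0.18 with assigned transcripts (adjusted p = 0.106). Without assignment it was -0.14, so the call and then the sign were lost. The part of each omission in this was not tested. The median of all genes on the scale with assigned transcripts was -0.0040.

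The forms of Neat1 were compared by the share of its named TPM in the long form of 20771 nt. This share was 99.9% ± 0.263 in KO clone 1 and 94.0% ± 9.26 in KO clone 2, against 100% in all 8 WT libraries (SD, n = 8 each). The difference of KO clone 2 was -6.00 percentage points with an exact permutation p of 0.0139, permuting within treatments and two-sided, and 0.0556 when adjusted over the 4 tests of this family. A named short form was listed in 1 of 8 KO clone 1 and 5 of 8 KO clone 2 libraries, against 0 of 8 WT libraries. It reached 6.61 TPM in KO clone 2. Unnamed transcripts over the short form, from base 5842307, summed to 38.5 TPM in the second KO clone 2 library with MyoD and plasmid. That library held 28.3 TPM of named Neat1. Another was at 8.03 TPM in the second KO clone 2 library with MyoD. The share and its test left these out, so they do not describe the forms in full.

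Malat1 was also set against Neat1 within each library, as the difference of their log2(TPM + 1) values. Through the added 1 this ratio still moves with the scale where Neat1 is low. On named TPM the log2 ratio was 4.16 ± 0.87 in KO clone 1 and 3.73 ± 4.26 in KO clone 2, against 3.12 ± 1.38 in WT (SD, n = 8 each). Neither difference passed the exact permutation test, with p = 0.0710 (adjusted 0.142) for KO clone 1 and p = 0.704 (adjusted 0.938) for KO clone 2. With unnamed transcripts assigned it was 3.86 ± 0.46 in KO clone 1 and 5.72 ± 0.95 in KO clone 2, against 3.54 ± 0.26 in WT. The difference of KO clone 2 was then 2.18, and with either-strand coverage 2.59. Both had an exact permutation p of 0.00154, the smallest that permuting within treatments allows. All 8 KO clone 2 ratios lay above all WT ratios. Both measures of the ratio were added after seeing the data, and their p was not adjusted. So relative to Neat1, Malat1 was higher in KO clone 2 than in WT wherever unnamed transcripts were counted.

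Rmrp (chromosome 4, 43492783 to 43493063) and Rpph1 (chromosome 14, 50807449 to 50807767), both on the minus strand, were near the floor of these libraries. Rmrp reached 2.07 TPM in KO clone 1 (listed at 0 in 4 of 8 libraries) and was listed at 0 in 8 of 8 KO clone 2 libraries, against at most 1.26 TPM in WT (0 in 5 of 8). Rpph1 reached 1.24 TPM in KO clone 1 (0 in 5 of 8) and 1.39 TPM in KO clone 2 (0 in 2 of 8), against 0.803 TPM in WT (0 in 2 of 8). Their log2 changes in KO clone 2 were -0.26 ± 0.23 and 0.07 ± 0.22 and were not called (adjusted p = 0.329 and 0.794). The number of reads behind these values is unknown, so differences at this level were not detectable here. A listed 0 can also be a failed assembly.

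KO clone 1 differed from WT far less. None of the 10 members was called higher and 3 were called lower, among them the identical Rn7s1 and Rn7s2. Of all genes 0.186% were called higher and 7.8% lower, with a median log2 change of -0.13. Of the members, 4 had an unadjusted p under 0.05. Rn7s1 changed by -1.18 ± 0.22 (adjusted p = 0.00162), Rn7s2 by -1.16 ± 0.22 (adjusted p = 0.00170) and Neat1 by -1.16 ± 0.20 (adjusted p = 0.000904). Rn7sk changed by -0.71 ± 0.10 (adjusted p = 0.000196), short of the size that a call needs. Over all genes 31 were higher and 1301 lower on TPM, but 679 were higher and 753 lower after rescaling without ribosomal and mitochondrial RNA, and 197 higher and 835 lower with median-of-ratios scaling. The calls of Rn7s1, Rn7s2 and Neat1 were lost with both rescalings, where Rn7s1 changed by -0.44 (adjusted p = 0.298) and -0.60. Named Neat1 changed by -1.10 ± 0.42 (adjusted p = 0.130) without ribosomal and mitochondrial RNA, a fold close to that on TPM with a larger error. It changed by -0.88 with median-of-ratios scaling. With unnamed transcripts assigned, Neat1 changed by -0.58 ± 0.17 (adjusted p = 0.0246), short of the size that a call needs. When also rescaled without those RNAs it changed by -0.18 ± 0.18 (adjusted p = 0.608). The lowest named Neat1 value of KO clone 1, 0.0229 TPM, became 2.51 TPM with assignment. Neat1 also fell short of the size threshold on exon coverage, at -0.50 ± 0.12, and without the second untreated KO clone 1 library. Malat1 did not differ beyond its error, at -0.12 ± 1.06, nor with unnamed transcripts assigned, at -0.26 ± 0.28 (adjusted p = 0.695).

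Set directly against KO clone 1, KO clone 2 had 2 members higher and 4 lower, among them the identical Rn7s1 and Rn7s2. Of all genes 61.4% were higher and 1.06% lower. Malat1 changed by 3.17 ± 1.06 (adjusted p = 0.0128) and Neat1 by 3.60 ± 0.20 (adjusted p = 6.30e-11). Rn7sk changed by -1.47 ± 0.10, Rn7s1 by -2.86 ± 0.22 and Gm42418 by -2.40 ± 0.36. This comparison shares its libraries with the others. The named Malat1 change was -0.34 after rescaling without ribosomal and mitochondrial RNA, -0.28 with median-of-ratios scaling and -0.55 in untreated libraries alone. The Neat1 call was lost as well, at 0.96 ± 0.42 (adjusted p = 0.0781) after that rescaling, at 0.53 (adjusted p = 0.0950) with median-of-ratios scaling and at 0.59, short of the size threshold, with assigned transcripts and the rescaling.

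**Figure D4:**
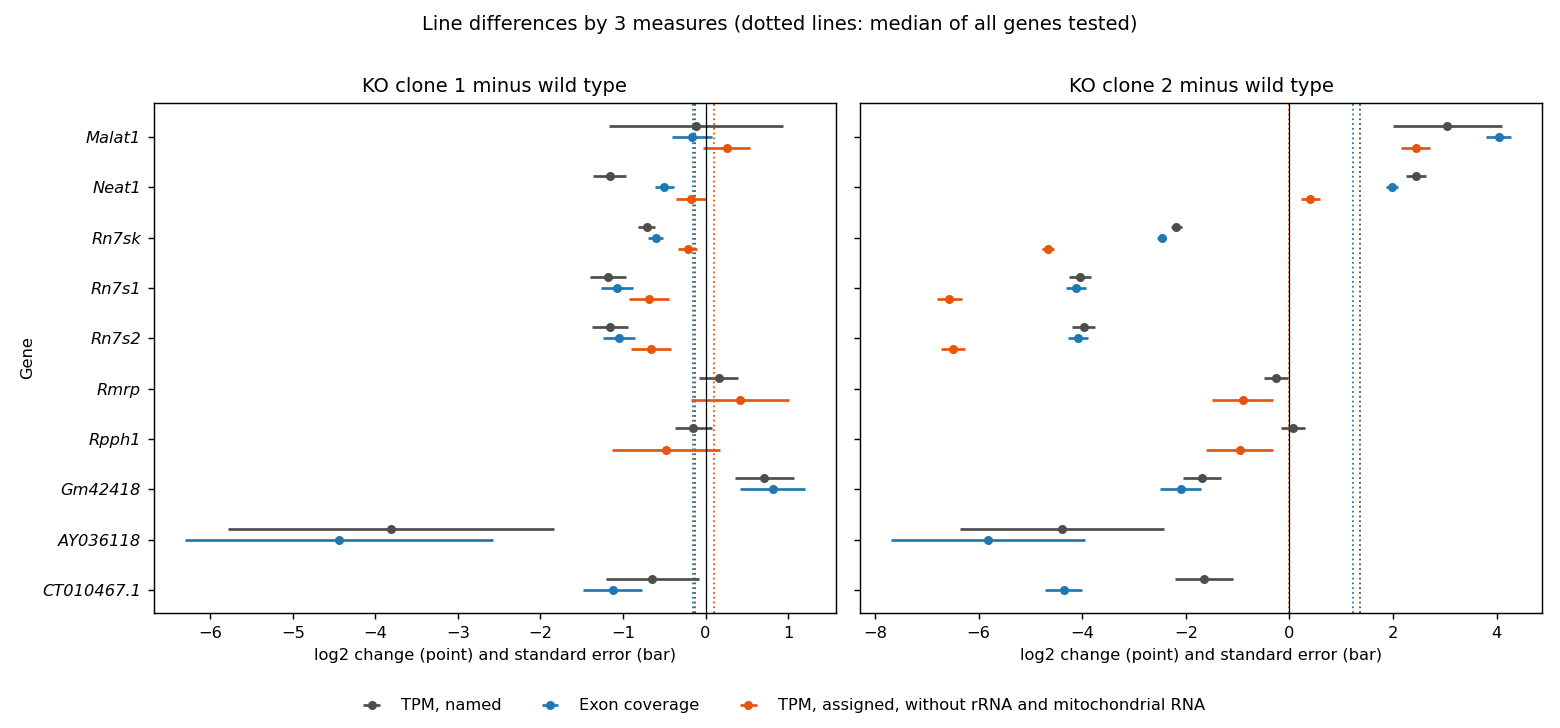
log2 change of each member against WT in KO clone 1 (left) and KO clone 2 (right), by named TPM, exon coverage per gene and assigned TPM without ribosomal and mitochondrial RNA. Points are estimates, bars standard errors, dotted lines the median of all genes on that measure. The falls of Rn7sk, Rn7s1 and Rn7s2 in KO clone 2 stand on all 3 measures, while Neat1 is at 2.44, 1.98 and 0.41.

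MyoD changed none of the 10 members in WT or KO clone 1 by limma, where 0.15% and 0.0959% of all genes were called; 0 members in WT and 3 in KO clone 1 had an unadjusted p under 0.05. In KO clone 2, 3 members were called higher with MyoD (Malat1 and the identical Rn7s1 and Rn7s2) and 0 lower, where 1.54% of genes were called higher and 17.3% lower. Over all genes in KO clone 2, 257 were higher and 2892 lower on TPM, but 849 were higher and 1335 lower on FPKM and 281 higher and 369 lower with median-of-ratios scaling. Exon coverage gave 818 higher and 791 lower. The ribosomal share itself was 5.38% to 7.76% in the 4 KO clone 2 libraries with MyoD and 2.45% to 4.42% in the 4 without.

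7SL and 7SK RNA moved in opposite directions with MyoD in KO clone 2. Rn7s1 was at 10.4 and 4.56 TPM with MyoD and plasmid and at 7.16 and 8.74 TPM with MyoD, against 4.15 and 1.59 TPM with plasmid and 3.79 and 1.18 TPM untreated. All 4 libraries with MyoD lay above all 4 without, and Rn7s1 rose by 1.29 ± 0.31 (adjusted p = 0.00649). Rn7s2 rose by 1.16 ± 0.31 (adjusted p = 0.0119), a call that was lost without any of 3 libraries, the second untreated, the second plasmid and the first MyoD and plasmid library. Both calls were lost with median-of-ratios scaling, at 0.93 for Rn7s1 and 0.88 for Rn7s2, and in KO clone 2 fitted alone, at 1.29 ± 0.47 (adjusted p = 0.104) and 1.16 ± 0.46 (adjusted p = 0.130). Rn7sk was at 6.54 and 6.71 TPM with MyoD and plasmid and at 4.93 and 5.99 TPM with MyoD, against 14.5 and 16.2 TPM with plasmid and 10.3 and 10.5 TPM untreated. These groups did not overlap either, and the log2 change of -0.96 ± 0.15 (adjusted p = 0.000191) missed the size that a call needs.

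**Figure D5:**
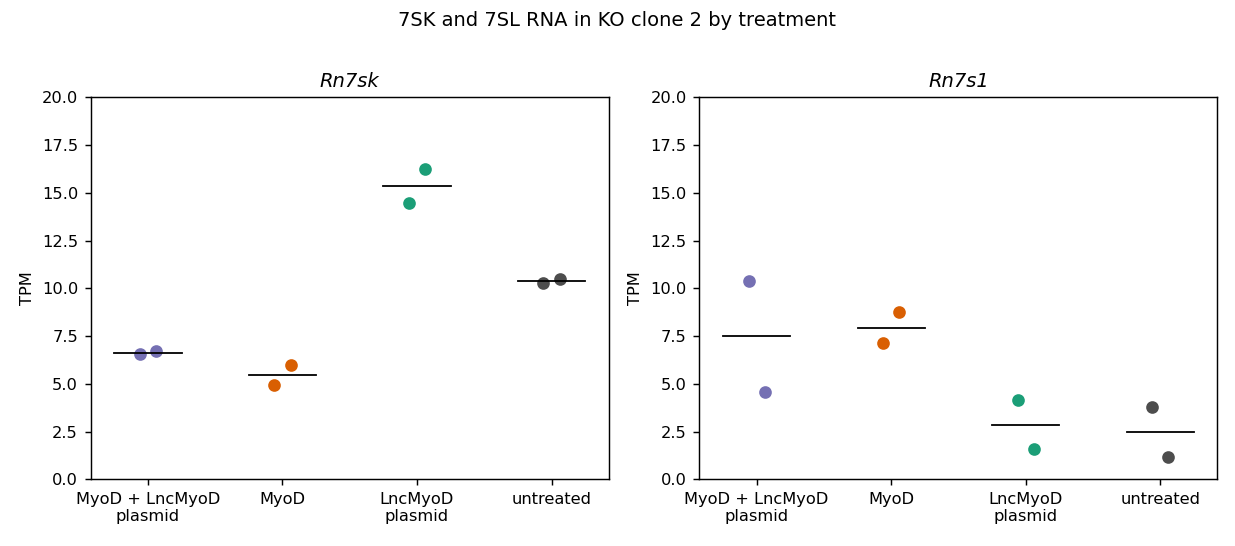
TPM of Rn7sk (left) and Rn7s1 (right) in the 8 KO clone 2 libraries by treatment, with bars at the mean of 2 libraries. Rn7sk is at 4.93 to 6.71 TPM in libraries with MyoD and at 10.3 to 16.2 TPM in those without, while Rn7s1 is at 4.56 to 10.4 TPM with MyoD and at 1.18 to 4.15 TPM without.

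The response of KO clone 2 was then tested against that of WT. In WT, Rn7sk was at 52.4 and 46.8 TPM with MyoD and plasmid and at 42.2 and 45.0 TPM with MyoD, against 30.5 and 31.8 TPM with plasmid and 46.4 and 60.5 TPM untreated, so its groups with and without MyoD overlapped. The response of Rn7sk in KO clone 2 minus that in WT was -1.15 ± 0.21 (adjusted p = 0.00201), and that of Rn7s1 was 1.41 ± 0.44 (adjusted p = 0.0496). Rn7s2, the identical copy, differed by 1.29 ± 0.43 (adjusted p = 0.0688) and was not called. In this comparison 0.833% of genes were called higher and 10% lower. The Rn7sk call held without any single library. It was lost on FPKM and exon coverage, where the difference was -0.46 (adjusted p = 0.138 and 0.0670), and with median-of-ratios scaling at -0.54 (adjusted p = 0.323). Without ribosomal and mitochondrial RNA it was -0.99 (adjusted p = 0.113), and -0.97 with assigned transcripts, short of the size threshold. The Rn7s1 call held in 4 of 16 fits without a library, and it was lost with a pseudocount of 0.1, without the filter, with each rescaling, with assigned transcripts and in the 2 lines alone. For KO clone 1 against WT, 0 members were called, where 0.012% of genes were, and 1 member had an unadjusted p under 0.05.

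Named Malat1 rose with MyoD in KO clone 2 by 4.45 ± 1.49 (adjusted p = 0.0397), a change whose size and sign differed by measure. With unnamed transcripts assigned, the change was -0.17, and -0.018 when ribosomal and mitochondrial RNA were also removed. On exon coverage it was 1.14 ± 0.34 (adjusted p = 0.0150), where 5.39% of genes were called higher. Coverage per gigabase on either strand was 1246 to 2659 in KO clone 2 with MyoD and 868 to 1056 without, with no overlap. The call on named TPM remained in 2 of 8 fits that left out a KO clone 2 library. Neat1 was at 29.4 and 28.3 TPM with MyoD and plasmid and at 24.9 and 26.8 TPM with MyoD, against 49.9 and 41.1 TPM with plasmid and 76.3 and 56.1 TPM untreated. Its groups did not overlap, and its log2 change of -0.97 ± 0.28 (adjusted p = 0.0197) missed the size threshold.

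The LncMyoD plasmid, tested over all lines and with or without MyoD, changed 0 of the 10 members by limma, where 0.012% of genes were called; 1 member, Neat1, had an unadjusted p under 0.05. Its log2 change was -0.39 ± 0.16 (adjusted p = 0.706). No member is thus shown to respond to the plasmid at this spread.

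The proteins that work with these RNAs were followed by lists, which describe KO clone 2 against WT beside the background of 57.1% of genes higher and a median log2 change of 1.36. Of the 12 proteins of the 7SK particle and P-TEFb, 12 were higher and 0 lower, with a median change of 3.02, although 7SK RNA itself was lower. Cdk9, the kinase of P-TEFb, rose by 4.04 ± 0.30 (adjusted p = 2.71e-09), Ccnt1, its cyclin, by 4.33 ± 0.41 (adjusted p = 7.08e-08), and Srsf2, a splicing factor tied to 7SK, by 4.94 ± 0.29 (adjusted p = 1.29e-10). Of the 10 tested signal recognition particle and receptor genes, 10 were higher, with a median change of 3.95. Srp14, whose protein binds the Alu end of 7SL together with Srp9, averaged 2.03 ± 1.40 TPM in KO clone 1 and 403 ± 110 TPM in KO clone 2, against 4.04 ± 1.63 TPM in WT (SD, n = 8 each). Srp14 rose by 6.35 ± 0.19 (adjusted p = 4.04e-14) and Srp9 by 5.07 ± 0.17 (adjusted p = 1.88e-13). The mRNAs of the particle thus moved against its RNA on this scale.

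Part of these counts belonged to the scaling and to the assignment of unnamed transcripts, which were changed together. On TPM with assigned transcripts and without ribosomal and mitochondrial RNA (the rescaled TPM of the lists below), where 19.6% of genes were higher and 11.1% lower and the median gene was near 0, 4 of 12 genes of the 7SK particle were higher and 1 lower. Of the 10 signal recognition particle genes, 7 were higher and 0 lower, with a median of 1.54. Srp14 rose by 4.11, Srp9 by 3.09 and Cdk9 by 2.87 on that scale. The shift between RNA and protein genes was therefore still present for 7SL on this second scale.

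For RNase P and RNase MRP, whose RNAs were near 0, 9 of 10 protein genes were higher in KO clone 2 on TPM (median 4.05), and 7 of 11 after rescaling (median 3.23), with 0 lower on both. Rpp25l rose by 5.34 ± 0.19 (adjusted p = 4.47e-13), Rpp30 by 4.70 ± 0.18 and Pop7 by 4.56 ± 0.18 on TPM, all 3 being protein subunits of these enzymes. Of 5 genes that act on the Malat1 3′ end, 5 were higher on TPM, but 0 were higher and 1 lower after rescaling. Elac2, the tRNA 3′ processing enzyme that frees mascRNA, rose by 3.17 ± 0.27 (adjusted p = 1.90e-08) on TPM. Exosc10, a nuclear exosome nuclease, changed by 4.75 ± 0.14 on TPM and by -2.38 with assignment and rescaling together, so its sign hung on the measure. Which of these steps moved it was not tested.

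Of the nuclear speckle proteins, which share their compartment with Malat1, 19 of 20 were higher on TPM and 0 lower (median 3.69), and 11 were higher and 2 lower after rescaling (median 1.52). Srsf5 rose by 6.67 ± 0.24 (adjusted p = 3.41e-13) and Srsf3 by 5.58 ± 0.19 (adjusted p = 2.44e-13), both splicing factors of the SR family. Of the paraspeckle proteins, 12 of 15 were higher (median 2.57), and 6 of 16 higher and 1 lower after rescaling (median 0.22). Ewsr1, an RNA-binding protein, averaged 2.05 ± 1.26 TPM in KO clone 1 and 190 ± 40.1 TPM in KO clone 2, against 6.46 ± 3.43 TPM in WT, and rose by 4.84 ± 0.32 in KO clone 2.

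The genes that make these RNAs gave similar counts. Of 20 tested genes of RNA polymerase I and rRNA maturation, 18 were higher and 0 lower (median 2.83), and 10 of 22 higher and 1 lower after rescaling (median 0.89). Nop56, a box C/D snoRNP core protein, rose by 4.84 ± 0.20 (adjusted p = 1.68e-12). Of 25 RNA polymerase III genes, 18 were higher and 2 lower (median 2.18), and 6 higher and 6 lower after rescaling, with a median of 0.02. Maf1, which represses RNA polymerase III, was at 0 to 4.09 TPM in KO clone 1 and at 110 to 168 TPM in KO clone 2, against 0.474 to 4.91 TPM in WT, and rose by 5.67 ± 0.23 (adjusted p = 2.07e-12).

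Other long noncoding RNAs, which as a class are mostly polyadenylated, were higher in KO clone 2 in 22 of 30 cases and lower in 0 (median 3.44), and in 20 of 32 after rescaling with 2 lower (median 2.63). Zfas1, a snoRNA host gene, averaged 0.0913 ± 0.126 TPM in KO clone 1 and 61.1 ± 13.4 TPM in KO clone 2, against 0.279 ± 0.285 TPM in WT. Meg3, an imprinted RNA, was listed at 0 in all libraries of KO clone 1 and WT and at 14.1 to 136 TPM in KO clone 2. Of 9 further RNAs of the same kinds as the members, 3 were higher and 0 lower (median 0.91). These were mt-Rnr1, the small mitochondrial ribosomal RNA, at 1.99 ± 0.11, and the small nuclear RNAs Scarna13 at 1.86 ± 0.39 and Rnu12 at 1.19 ± 0.31. After rescaling 2 of 6 were higher and 0 lower (median 0.54), and Rnu12 changed by 0.47 (adjusted p = 0.645), no longer called. On exon coverage, where 56.7% of genes were called higher and 3.35% lower, 2 of 9 were higher and 2 lower, of which Gm26917 changed by -1.59 ± 0.26 (adjusted p = 2.39e-05). Mitochondrial ribosomal RNA did not share the fall of the ribosomal members on TPM.

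In KO clone 1 against WT, where 7.8% of genes were lower, the lists held 3 of 12 7SK particle genes lower (Hnrnpa1, Hexim2 and Syncrip), 2 signal recognition particle genes (Srpr and Srp68), 3 paraspeckle genes, 1 speckle gene and 5 of the RNA polymerase I list. The further RNAs held 1 lower, mt-Rnr2, the large mitochondrial ribosomal RNA, at -1.11 ± 0.09 (adjusted p = 7.82e-07). No list member was called higher. On exon coverage, where 3.24% of genes were called lower, 3 of these were called, Hnrnpa1 at -1.10 ± 0.16, the paraspeckle gene Nono at -1.03 ± 0.13 and mt-Rnr2, and none of the signal recognition particle, speckle or RNA polymerase I lists was. Srpr, a subunit of the receptor of the particle, changed by -2.13 ± 0.45 on TPM (adjusted p = 0.00392).

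Genes with the most similar profiles were sought by Pearson's r of log2(TPM + 1) over the 24 libraries among 3994 genes with a mean of at least 10 TPM. The points share their lines, ribosomal share and depth, so these are descriptions. Neat1 was closest to Cers2 (r = 0.97), Hgs (0.96) and Gpm6b (0.96). Rn7sk was closest to Zfp36l1 (0.95), Uprt (0.94) and Dcaf7 (0.94), and Gm42418 to Trp53inp2 (0.77). Malat1 reached only 0.72 with Prpf38b, and the closest genes to Rmrp and Rpph1 stayed at 0.48 (mt-Tm) and 0.47 (Vipas39).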

How the data were processed

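A file holds the transcripts of a library. Per the file headers it was made with StringTie 2.1.2, guided by GENCODE vM21 with assembly on, while the submitters' processing notes name StringTie 1.3.3, HISAT2 2.1.0, SAMtools 1.3, Trimmomatic 0.36, bcl2fastq 2.19 and mm10. For each transcript the authors deposited coverage, FPKM and TPM, and the deposited TPM were summed per gene name without further scaling (710312 to 979898 per library). No counts of reads were used, so the depth in reads is unknown, no counting interval is given, and a listed 0 can be a failed assembly. Aligned gigabases came from the ratio of coverage to FPKM, and exon coverage per gene was divided by it. All 35260 gene identifiers matched vM21.

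The test was limma 3.58.1 (R 4.3.3) with a trend on log2(TPM + 1), which understates changes of low genes, with a mean for each of the 12 groups and 12 degrees of freedom left for the spread. Genes at 1 TPM or more in at least 2 libraries entered, 16680 in all, with Benjamini-Hochberg adjustment per comparison. On simulated data for KO clone 2 against WT with 10838 genes, 86% of log2 changes of 1.5 and 97% of changes of 3 were called. Ratios of 2 RNAs were tested by exact permutation within treatments, two-sided. The members and lists were chosen with earlier results of these data known. Named are all members, up to 3 called members of a list with the largest change, and the 3 genes most like a member; some of the last 2 kinds are not printed, and 1 gene and 1 sequence are not reported here. Alternatives were another pseudocount, no filter, FPKM, 2 rescalings, assignment of unnamed transcripts, exon coverage, untreated libraries or the compared lines alone, a replicate block and each library left out. The rescaling without ribosomal and mitochondrial RNA divided by the sum over the remaining named genes, or named and assigned genes. Other transcripts and Gm26917, beside the ribosomal stretch, thus left the total, and with assignment Lars2 did too. Exon coverage, and assignment together with rescaling, were added after seeing the data. So was the Malat1 to Neat1 ratio with assigned transcripts or either-strand coverage. Replicate numbers did not pair libraries (66 pairs of groups, correlations of deviations -0.063 to 0.049).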

Additional observations from a re-analysis of the deposited data

Results flagged for a closer look

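The response to MyoD differed between KO clone 2 and WT for 2 members by limma's test of that difference. It was -1.15 for Rn7sk and 1.41 for Rn7s1, in log2 units of TPM + 1, as KO clone 2 minus WT, with adjusted p of 0.00201 and 0.0496. Rn7s2, identical in sequence to Rn7s1, differed by 1.29 (adjusted p = 0.0688) and was not called. The Rn7s1 call was lost with a pseudocount of 0.1, without the filter, with each rescaling, with assigned transcripts and with the 2 lines alone, at adjusted p of 0.0550 to 0.150, and the Rn7sk call on FPKM, on exon coverage and with each rescaling. Both lie beside a ribosomal share that was 5.38% to 7.76% with MyoD and 2.45% to 4.42% without it in KO clone 2; its part in them was not tested.

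Unnamed transcripts on the plus strand over Malat1, opposite to the gene, entered no TPM or exon coverage value of Malat1 above. They did count in its coverage per gigabase on either strand and in the ratio to Neat1 built on that coverage. They summed to 930 TPM in the first plasmid library, 851 TPM in the first untreated library and 5841 TPM in the second untreated library of KO clone 2. They were at 0 in the other 5 KO clone 2 libraries and in all 8 of KO clone 1 and all 8 of WT. The same 3 libraries held the unnamed minus-strand transcripts and the lowest named Malat1 values of the line. Without strand, reads of the gene and of an antisense RNA cannot be told apart.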

How the results depend on the processing

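Of 819 values of members under an alternative, 737 kept direction and call, 42 lost a call, 17 gained one, 15 moved and 8 reversed. Leaving out a library kept 1229 of 1270, lost 23, gained 12 and moved 6. The reversed values were Neat1 in KO clone 2 minus WT (-0.14 without ribosomal and mitochondrial RNA, -0.35 with median-of-ratios scaling), Malat1 in KO clone 2 minus WT (-1.56 in untreated libraries), Malat1 in KO clone 2 minus KO clone 1 (-0.34 without ribosomal and mitochondrial RNA, -0.28 with median-of-ratios scaling, -0.55 untreated) and Malat1 with MyoD in KO clone 2 (-0.17 with assigned transcripts, -0.018 when also rescaled). The cause was not tested, apart from Malat1 with MyoD, where assignment itself moved the value. CT010467.1 in KO clone 2 minus WT was -0.97 and not called without the first untreated WT library.

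Genes called, main count first. KO clone 1 minus WT had 1332, and 2109 with a pseudocount of 0.1, 866 on FPKM, 620 untreated and 529 on exon coverage. KO clone 2 minus WT had 10002 and 5968 with median-of-ratios scaling, and KO clone 2 minus KO clone 1 had 10415 and 6196. MyoD in WT had 25, and 55 without ribosomal and mitochondrial RNA, 41 with median-of-ratios scaling, 78 when assigned and rescaled, and 13 in that line alone. MyoD in KO clone 1 had 16, and 65 (pseudocount), 470 (without ribosomal and mitochondrial RNA), 230 (median-of-ratios), 6 (exon coverage), 433 (assigned and rescaled), 3 (line alone) and 4 to 150 with a library left out. MyoD in KO clone 2 had 3149, and 786 (without ribosomal and mitochondrial RNA), 650 (median-of-ratios), 1609 (exon coverage), 874 (assigned and rescaled) and 1812 (line alone). The plasmid had 2, and 4 (pseudocount), 0 (FPKM, 903 at an unadjusted p under 0.05; rescaled, 1674; median-of-ratios, 1022), 7 (assigned and rescaled) and 0 to 18 with a library left out. The response of KO clone 1 minus WT had 2, and 12 (pseudocount), 7 (no filter), 81 (rescaled), 50 (median-of-ratios), 89 (assigned and rescaled) and 1 to 34 with a library left out. That of KO clone 2 had 1810, and 1089, 278, 291 and 321 (pseudocount, rescaled, median-of-ratios, assigned and rescaled).

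The replicate block gave 1 call each for the plasmid and the response of KO clone 1. AY036118 in KO clone 2 minus WT was -4.39 ± 1.97 by limma on TPM (adjusted p = 0.0562) and not called. It passed with the replicate block (adjusted p = 0.0443), on FPKM, with median-of-ratios scaling and with assigned transcripts. It also passed on exon coverage (-5.82, adjusted p = 0.00821) and in the 2 lines alone (-4.39 ± 0.34, adjusted p = 2.71e-07). With a pseudocount of 0.1, without the filter and in untreated libraries it did not pass. The log2 ratio of Malat1 to Neat1 in KO clone 2 minus WT was 2.18 with assigned transcripts and 2.59 on coverage. The ribosomal share over all transcripts was 60.3% in KO clone 1 and 61.1% in WT. Without 1 library the long-form share of named Neat1 in KO clone 2 differed by -8.89 to -3.10 points. The log2 ratio on named TPM then differed by 0.52 to 1.56 in KO clone 1 and by -0.64 to 1.85 in KO clone 2.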
